A study of Mus musculus with 6 samples.

Results

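The genes described here encode enzymes and carriers of fatty acid oxidation, 31 of 27343 genes on the array, chosen as the probes whose gene name in the scanner files was one of these members. Their RNA was measured in whole testis of Prss37-/- mice (knockout, n = 3) and of wild-type mice (n = 3), all on a C57BL/6 background and 6 to 8 weeks old. Prss37 is a gene of the trypsin family expressed in testis, and the question was which transcripts differ when it is lacking. Total RNA was amplified, labelled with Cy3 and hybridised to 6 single-colour Agilent mouse arrays, 1 mouse each by the n given in the design text. The title and source of the knockout samples name Prss37 while their description field names Prss55, and which bases of Prss37 were deleted is not given in the sources used here.

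Before a fatty acid can be burnt it is joined to coenzyme A by an acyl-CoA synthetase, and long chains then enter the mitochondrion as carnitine esters. Inside, repeated rounds of dehydrogenation, hydration, a further dehydrogenation and thiolysis shorten the chain, with electrons passed through the electron transfer flavoprotein to ubiquinone, while peroxisomes run a related set of steps on very long and branched chains. In the seminiferous tubule, Sertoli cells are known to clear spent germ cell bodies and to oxidise their lipid, and late germ cells carry their own forms of several metabolic enzymes.

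The probes of the transcripts on which the results turn are shown here so that the measured stretch of each is plain. Positions are those in the scanner files, on mm9, with the start in the transcript as the array's design gives it. Capitals mark AATAAA, the usual polyadenylation signal. The Etfb probe lay on chr7:50713078-50713137, plus strand, at base 740 of its transcript, and is given whole:
Etfb: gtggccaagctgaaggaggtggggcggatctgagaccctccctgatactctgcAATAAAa
The Acsl3 probe lay on chr1:78702965-78703024, plus strand, at base 2456, and its first 50 bases are given:
Acsl3: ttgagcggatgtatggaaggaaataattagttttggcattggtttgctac
A pair of Acsl1 probes on the plus strand of chromosome 8 is given because 1 of them passed the threshold and the other did not. The brightest Acsl1 probe lay on chr8:47619774-47619833, at base 2260, and the other on chr8:47621232-47621291, at base 3718, of which the first 30 bases are given:
Acsl1, base 2260: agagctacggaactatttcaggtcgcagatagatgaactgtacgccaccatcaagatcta
Acsl1, base 3718: gcctaacttcatactcgtattcttaattgc
Whether these stretches are coding or untranslated was not looked up, since no annotation of mm9 was used here.

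Across the series, 69.2% to 71.4% of spots were well above background on each array and none was saturated. Values below are scaled signals, the scanner software's background-subtracted brightness after all arrays were brought to the same 75th percentile, and differences are log2 knockout minus wild type from limma, with p-values adjusted over all 18976 genes tested. Prss37 had 67592, 73824 and 71562 in knockout against 116135, 107860 and 124390 in wild type, a difference of -0.71 (SE 0.07, adjusted p = 0.024), on a probe that stayed well above background on every array. Whether that probe lies within the deleted part is not known here, and outside it the probe would not check the genotype. Prss55 differed by -0.16 (SE 0.09, adjusted p = 0.36). Slide 1 carried replicates 1 and 2 of both genotypes and slide 2 replicate 3 of both, so values within each slide are given beside the results. In whole testis, fewer cells of a type and less RNA per cell cannot be told apart.

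The transcripts of fatty acid oxidation differed little between knockout and wild-type testis. All 31 members were tested, each by a probe well above background on 6 of 6 arrays. Etfb, a subunit of the electron transfer flavoprotein, rose 1.28-fold, and Acsl3, a long-chain acyl-CoA synthetase, fell to a level 1.23-fold below wild type. These were 2 of 31 members, where 2.46% of all genes passed the same threshold, 1.21% upward and 1.25% downward. The other 29 did not pass, 16 of them lying above 0 and 13 below. The median difference over the 31 members was 0.0093, beside -0.0024 over all genes tested.

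The intervals show how large a change each of these measurements would allow. The 95% interval of the difference lay within a 1.2-fold change either way for 23 of 31 members, within 1.3-fold for 28 and within 1.5-fold for all 31. These are the intervals of each gene's brightest probe. Other probes could allow more, as a dim Acsl6 probe did at -0.63 to 0.64, past the 1.5-fold limit of 0.58. Among the 29 that did not pass, the bound farthest from 0 was 0.38, that of Acsbg2. At an unadjusted p under 0.05 there were 5 members, or 16.1% of them (Etfb, Acsl3, Acsl4, Cpt1a and Hadha), where 23.9% of all genes lay under it. The genotypes did not overlap for 9 members, or 29.0% of them, where 31.6% of all genes had no overlap. Of these 9, Acsl6, Cpt1a, Acadl, Hadha, Etfa, Etfb and Hsd17b4 were higher in knockout, and Acsl3 and Acsl4 lower. The share without overlap was thus near that of all genes. The 2 members past the threshold were 6.45% of the 31, beside 2.46% of all genes. None of these shares was tested.

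**Figure D1:**
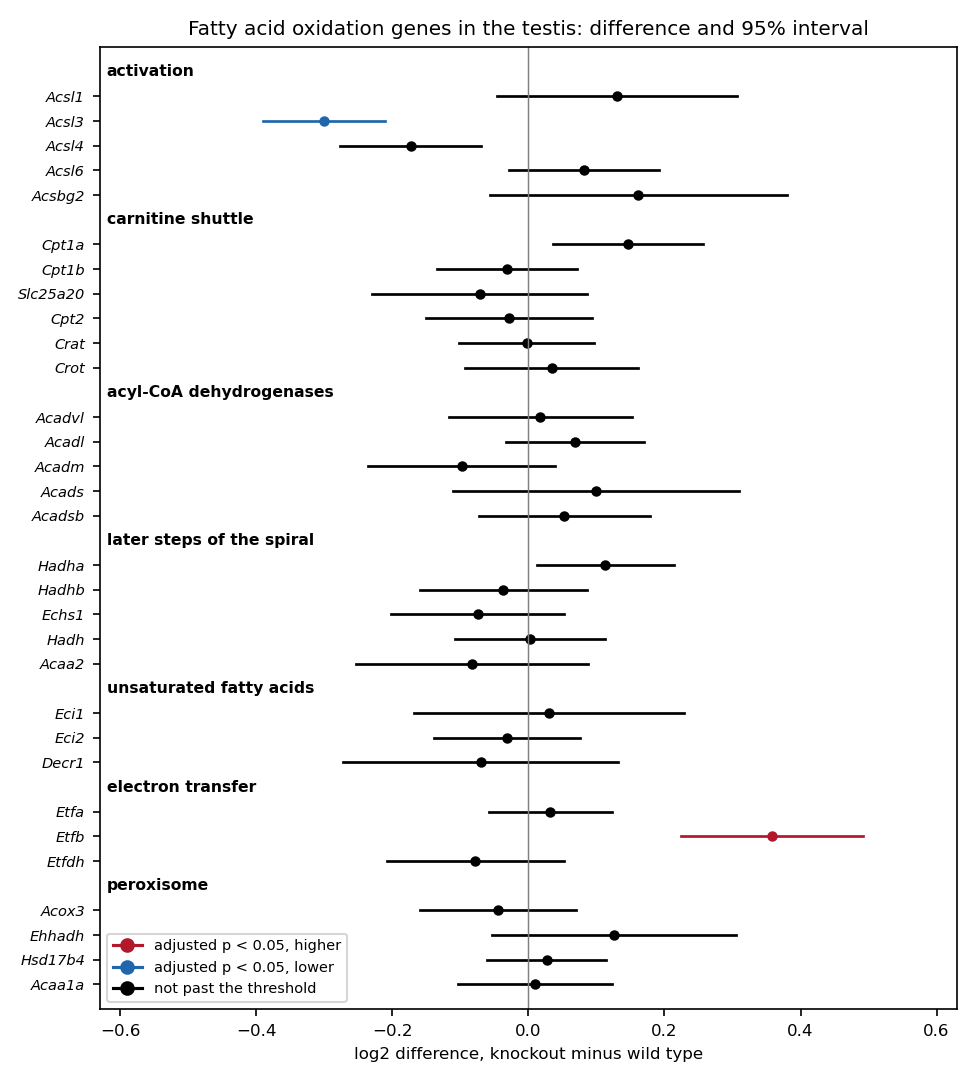
Difference (log2, knockout minus wild type) and its 95% interval for each of the 31 fatty acid oxidation genes, grouped by role. Etfb at 0.36 (red) and Acsl3 at -0.30 (blue) lie past the threshold, and the other 29 points lie between -0.17 and 0.16.

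Among the 5 synthetases of activation, 1 passed the threshold, downward. Acsl3, the synthetase known from the endoplasmic reticulum and lipid droplets, had 1638, 1671 and 1620 in knockout and 2041, 2012 and 2015 in wild type. The 3 knockout values lay close together and all below the wild-type values. The difference was -0.30 (SE 0.04, 95% interval -0.39 to -0.21, adjusted p = 0.035). It was -0.29 within slide 1 and -0.32 within slide 2. Blocking on slide lost the call (adjusted p = 0.062), and over the fits that each left out 1 array it ran between 0.038 and 0.15.

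Acsl4, which prefers arachidonic and other polyunsaturated acids, had 1976, 2015 and 1912 in knockout and 2157, 2266 and 2233 in wild type. All knockout values were below all wild-type values. Its difference of -0.17 (SE 0.04) did not pass (adjusted p = 0.084), and a probe nearer the start of its transcript, at base 2558, differed by -0.04 (SE 0.04).

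The other synthetases lay above 0. Acsbg2, of the bubblegum family of synthetases and known from testis, had 9795, 10407 and 10905 in knockout and 8781, 8618 and 10493 in wild type. Wild-type replicate 3 lay inside the knockout range and the other wild-type values below it. The difference was 0.16 (SE 0.09, adjusted p = 0.33), with 0.21 within slide 1 and 0.06 within slide 2.

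Acsl1, the synthetase that feeds oxidation in liver, heart and fat, showed the same arrangement at its brightest probe, with 86374, 91477 and 93073 in knockout and 78028, 79114 and 90956 in wild type. Again wild-type replicate 3 lay among the knockout values. The difference was 0.13 (SE 0.07, adjusted p = 0.33), with 0.18 within slide 1 and 0.03 within slide 2. Acsl6, known from brain and testis, differed by 0.08 (SE 0.05, adjusted p = 0.33).

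Of the 3 Acsl1 probes, all above 0, 1 passed the threshold. The probe at base 3718 had 7507, 7389 and 7293 in knockout and 5899, 6212 and 6010 in wild type. Here all knockout values were above all wild-type values, wild-type replicate 3 included. Its difference was 0.29 (SE 0.04, adjusted p = 0.047 over 28306 probes, of which 1.04% passed), beside 0.13 at base 2260 and 0.10 at base 2568. The differences between probes within an array, chosen after the values were seen, were set against each other by genotype. Base 3718 minus base 2260 averaged -3.61 ± 0.08 in knockout and -3.77 ± 0.13 in wild type (SD, n = 3 each; two-sided exact permutation p = 0.2, where the smallest possible is 0.1). For base 3718 minus base 2568 the means were -3.01 ± 0.09 in knockout and -3.20 ± 0.13 in wild type (p = 0.1 by the same exact test). A design of 3 against 3 cannot pass 0.05 with this test.

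**Figure D2:**
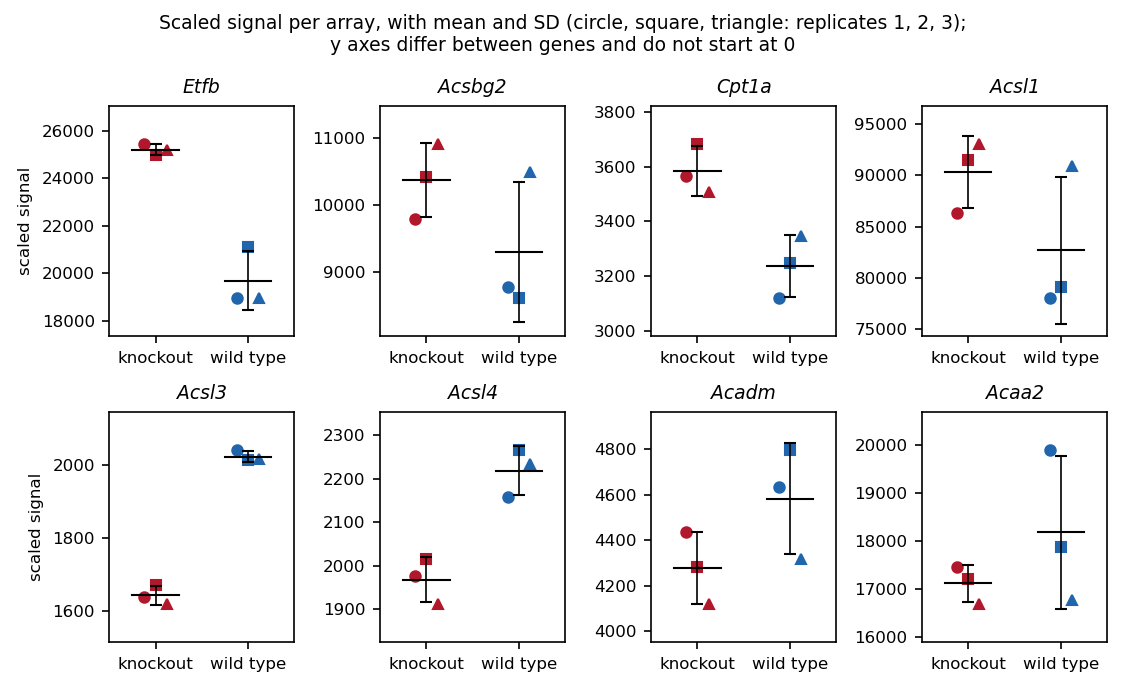
Scaled signal on each array for the 4 members with the highest and the 4 with the lowest differences, knockout (red) left of wild type (blue), with the mean and SD of 3 arrays and y axes that do not start at 0. The genotypes are apart for Etfb, Cpt1a, Acsl3 and Acsl4, while wild-type replicate 3 (triangle) lies inside the knockout range for Acsbg2, Acsl1, Acadm and Acaa2.

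None of the 6 genes of the carnitine shuttle passed the threshold, and 1 had an unadjusted p under 0.05. Cpt1a, the liver form of the outer membrane enzyme that commits long chains to oxidation, had 3565, 3683 and 3505 in knockout and 3120, 3249 and 3345 in wild type. The genotypes did not overlap, with the highest wild-type value from slide 2. The difference was 0.15 (SE 0.05, 95% interval 0.04 to 0.26, adjusted p = 0.13), with 0.19 within slide 1 and 0.07 within slide 2. A dimmer Cpt1a probe at base 3196 also gave 0.15, with an SE of 0.16. The brightest Cpt1a probe was printed as 10 spots, and the standard error over its spots on an array was 0.0090 to 0.015, below the SD between arrays of 0.04 in knockout and 0.05 in wild type.

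Cpt1b, the muscle form, differed by -0.03 (SE 0.04). Slc25a20, the carrier that exchanges acylcarnitine for carnitine, differed by -0.07 (SE 0.06), and Cpt2, which returns the chain to coenzyme A inside, by -0.03 (SE 0.05). Crat, which handles acetyl groups, differed by -0.0026 (SE 0.04). Crot, which makes carnitine esters of the shortened chains that leave peroxisomes, differed by 0.03 (SE 0.05). At the brightest probe of each gene, all 6 intervals lay within a 1.2-fold change.

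The acyl-CoA dehydrogenases, which open each round on chains of a given length, did not pass either, with 4 of 5 above 0. Acadm, for medium chains, had 4435, 4281 and 4120 in knockout and 4633, 4796 and 4317 in wild type. The genotypes overlapped, and replicate 3 was the lowest in each. The difference was -0.10 (SE 0.06, adjusted p = 0.35). The others were 0.02 for Acadvl (very long chains), 0.07 for Acadl (long chains), 0.10 for Acads (short chains) and 0.05 for Acadsb (short branched chains), with adjusted p from 0.38 to 0.88. The difference of Acads was 0.03 within slide 1 and 0.24 within slide 2.

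The later steps lay on both sides of 0, with 2 of 5 above it. Hadha, the alpha subunit of the trifunctional protein that hydrates and dehydrogenates long chains, had 4371, 4318 and 4560 in knockout and 4088, 4006 and 4151 in wild type. All knockout values were above all wild-type values. The difference was 0.11 (SE 0.04, adjusted p = 0.17) at this probe, which starts at base 2404 of its transcript. A dimmer Hadha probe, at base 834 of another transcript record, gave -0.16 (SE 0.08).

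Hadhb, the beta subunit that carries the thiolase, differed by -0.04 (SE 0.05), on the other side of 0 from its partner. Echs1, the hydratase for short chains, differed by -0.07 (SE 0.05), and Hadh, the dehydrogenase for short chains, by 0.0023 (SE 0.05). Acaa2, the mitochondrial thiolase, had 17464, 17202 and 16694 in knockout and 19887, 17877 and 16766 in wild type. The wild-type values were spread over a range that took in 2 of the 3 knockout values. The difference was -0.08 (SE 0.07, adjusted p = 0.52), and it was -0.02 once wild-type replicate 1 was left out. The Acaa2 probe was also printed as 10 spots, and the SD between wild-type arrays of 0.12 was larger than the standard error over spots, 0.0075 to 0.011.

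The 3 enzymes that deal with double bonds differed little. The isomerases Eci1 and Eci2 were at 0.03 (SE 0.08) and -0.03 (SE 0.04), and the reductase Decr1 at -0.07 (SE 0.08). Their genotypes overlapped in each case.

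Electron transfer held the member with the largest difference. Etfb had 25440, 24965 and 25195 in knockout and 18966, 21123 and 18960 in wild type. The knockout values were close together and lay above all wild-type values, of which replicate 2 was the highest. The difference was 0.36 (SE 0.05, 95% interval 0.22 to 0.49, adjusted p = 0.044), with 0.33 within slide 1 and 0.41 within slide 2. Blocking on slide lost the call (adjusted p = 0.064), and over the fits that each left out 1 array it ran between 0.031 and 0.15. The call was also lost when arrays were quantile normalized (0.33, adjusted p = 0.054) and when p-values were adjusted over all 28306 probes (adjusted p = 0.051).

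The partners of Etfb did not pass the threshold. Etfa, the other subunit of the flavoprotein, had 2731, 2642 and 2644 in knockout and 2613, 2625 and 2601 in wild type. These were apart by a small margin, with a difference of 0.03 (SE 0.04, 95% interval -0.06 to 0.12, adjusted p = 0.65). Etfdh, the membrane enzyme that hands the electrons on to ubiquinone, differed by -0.08 (SE 0.05, adjusted p = 0.43). A difference between Etfb and its partners was not tested.

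The 4 peroxisomal members did not pass. Acox3, an oxidase for branched chains, differed by -0.04 (SE 0.05). Ehhadh and Hsd17b4, both bifunctional enzymes with hydratase and dehydrogenase activity, differed by 0.13 (SE 0.07) and 0.03 (SE 0.04). The thiolase Acaa1a differed by 0.0093 (SE 0.05). Ehhadh was at 0.20 within slide 1 and -0.02 within slide 2.

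The direction held across slides for most members. The difference had the same sign within slide 1 and within slide 2 for 25 of 31 members, beside 12824 of 18976 genes tested. The median over the members was 0.02 within slide 1 and 0.01 within slide 2. With the slide as a block, 0 members passed in limma, where 0.416% of all genes did, and 6 members had an unadjusted p under 0.05, beside 4641 of all 18976 genes. Relative to the wild-type mean of each gene, the median member lay at 0.03, 0.02 and -0.0027 on the 3 knockout arrays and at 0.02, 0.0055 and -0.02 on the 3 wild-type arrays. In each genotype the array on slide 2 was the lowest.

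**Figure D3:**
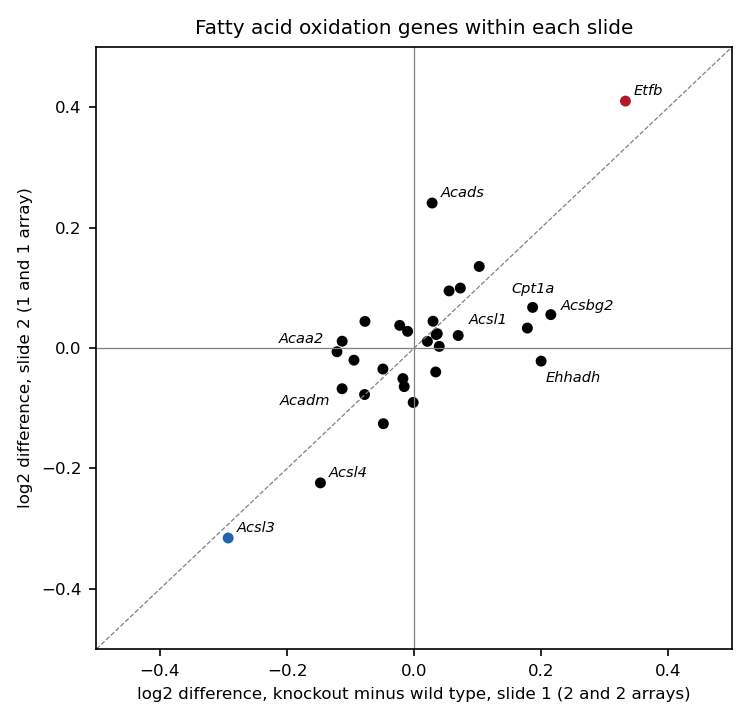
Difference (log2, knockout minus wild type) of each member within slide 1 (x axis, 2 knockout and 2 wild-type arrays) and within slide 2 (y axis, 1 of each). Etfb (red) and Acsl3 (blue) lie near the diagonal at the far ends, with 0.33 and 0.41 for Etfb and -0.29 and -0.32 for Acsl3, while Ehhadh, Acsl1 and Acsbg2 were nearer 0 on slide 2 than on slide 1.

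More than 1 probe was present for 10 members, and 43 of 46 member probes could be tested. The 3 others, of Acsl6, Hadha and Decr1, were well above background on 0, 3 and 0 of 6 arrays. Signs differed between tested probes of the same gene for Crot, Hadha and Etfdh, the Hadha probes being placed on different transcript records. In these genes no probe passed the threshold.

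**Figure D4:**
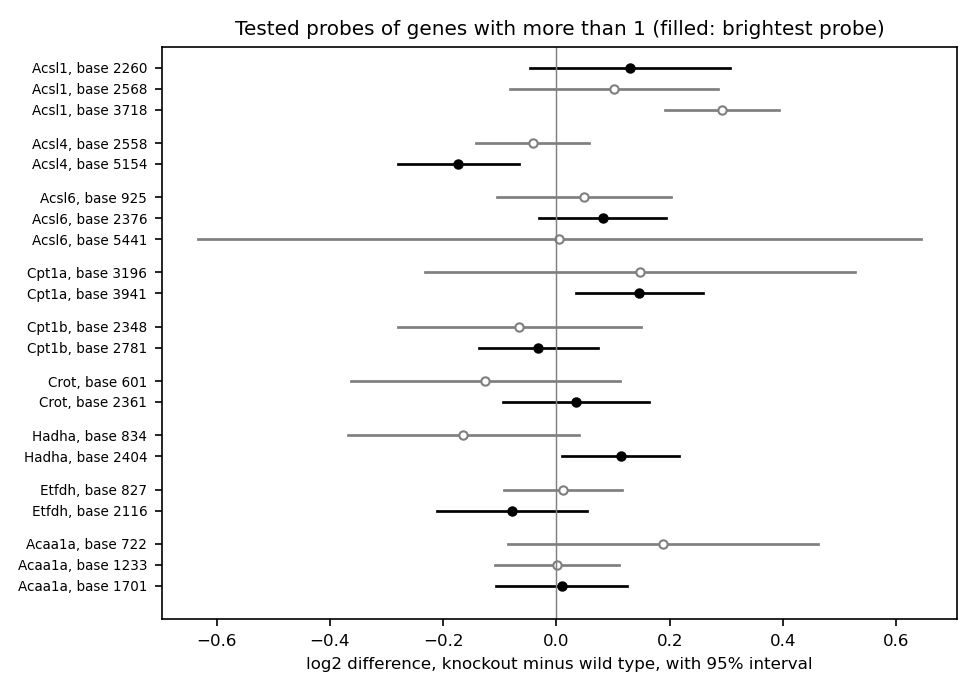
Difference (log2, knockout minus wild type) and 95% interval of every tested probe of the members with more than 1 tested probe, with the brightest probe filled. Labels give the start in the probe's own transcript record, which can differ between probes of a gene, as for Hadha. The Acsl1 probe at base 3718 lies at 0.29 with an interval clear of 0, to the right of the Acsl1 probes at 0.13 and 0.10.

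Genes around the pathway, from uptake to ketone bodies and lipid storage, were described in the same way. Of 122 listed, 112 were tested, and 3 passed the threshold, which is 2.68% of those tested and near the 2.46% of all genes. Their median was 0.0011, with 56 above 0 and 56 below.

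Mmut, the methylmalonyl-CoA mutase that closes the propionate route for odd chains, had 8806, 8680 and 8463 in knockout and 6901, 7337 and 7069 in wild type. The genotypes were clearly apart, and Mmut rose by 0.28 (SE 0.04, adjusted p = 0.042). Cat, the catalase that removes the hydrogen peroxide made by peroxisomal oxidation, had 506, 482 and 476 in knockout and 399, 412 and 412 in wild type. It rose by 0.26 (SE 0.04, adjusted p = 0.046), again with no overlap. Acss2, which makes acetyl-CoA from acetate outside the mitochondrion, had 4756, 4838 and 4689 in knockout and 5894, 5638 and 6061 in wild type. It was lower in all knockout arrays, with a difference of -0.30 (SE 0.04, adjusted p = 0.042). With the slide as a block none of the 3 passed in limma (adjusted p = 0.063 for Mmut, 0.070 for Cat and 0.063 for Acss2).

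In each other group the gene of smallest p did not pass. For uptake and binding this was Fabp12, a fatty acid-binding protein, at 0.20 (adjusted p = 0.090). For carnitine supply it was Slc22a4, an organic cation transporter, at -0.53 (adjusted p = 0.087). Its probe was dim, with 75, 78 and 77 in knockout and 118, 90 and 130 in wild type. For regulation it was Sirt5, a mitochondrial deacylase, at -0.18 (adjusted p = 0.082), and for synthesis and storage Plin2, a lipid droplet coat protein, at 0.25 (adjusted p = 0.059). Of the 20 genes of synthesis and storage, 0 passed in limma, 2 had an unadjusted p under 0.05 and 10 lay above 0.

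**Figure D5:**
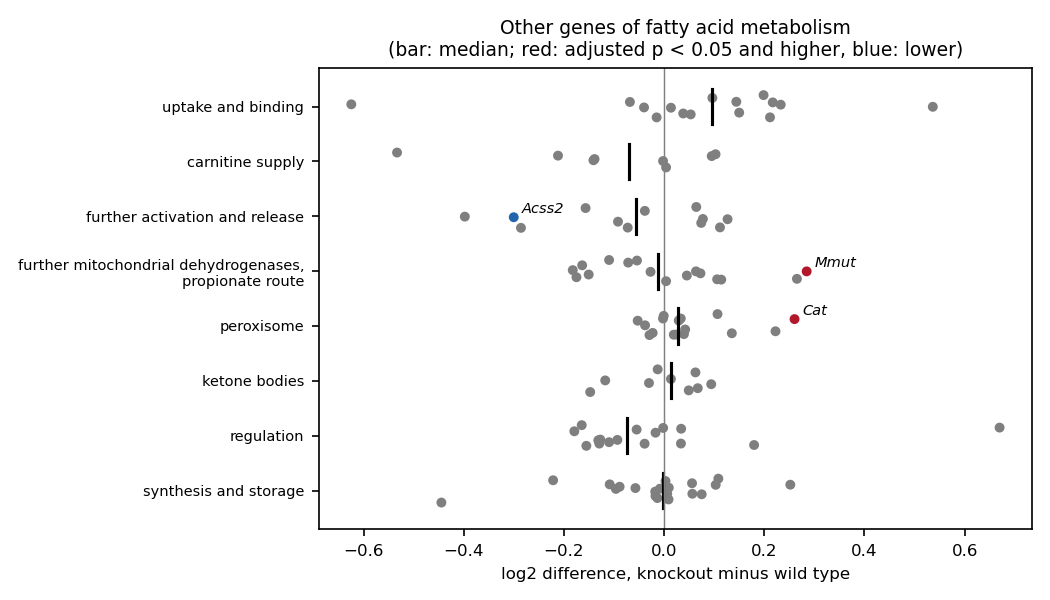
Difference (log2, knockout minus wild type) of the 112 tested genes of fatty acid metabolism outside the 31 members, 1 row per group, with the group's median as a bar. Mmut at 0.28 and Cat at 0.26 (red) and Acss2 at -0.30 (blue) passed the threshold, and the medians of the groups lie between -0.07 and 0.10.

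Markers of the testis cell types were present, and several of their sums were apart between genotypes. For scale, 31.6% of all single genes had no overlap between genotypes, and no sum was tested. The summed scaled signal of 8 round spermatid markers was 229249 to 234506 in knockout and 207585 to 221226 in wild type, with 7 of 8 markers above 0 and none past the threshold. For 13 Sertoli markers it was 160358 to 165122 in knockout and 146147 to 155891 in wild type, with 8 of 13 above 0, a median difference of 0.02 and none past it. Clu made up most of that sum, while the largest rises were those of Aqp8 (0.52, adjusted p = 0.054) and Rhox5 (0.26, adjusted p = 0.060). Shbg (-0.25), Fshr (-0.19) and Inha (-0.12) lay below 0. For 6 spermatogonial markers it was 23610 to 23977 in knockout and 26160 to 29536 in wild type, with 3 of 6 above 0 and a median difference of -0.0030. That gap came from Stra8 (-0.42, adjusted p = 0.058) and Uchl1 (-0.19, adjusted p = 0.11), while Kit, Gfra1, Dmrt1 and Sall4 lay between -0.03 and 0.09. The sums of 8 Leydig markers overlapped, at 54397 to 60379 in knockout and 52203 to 60895 in wild type. Those of the spermatocyte, elongating spermatid, peritubular and macrophage markers overlapped as well. Aif1 (-0.08) made up most of the macrophage sum and was the only 1 of the 9 macrophage markers below 0. Of these 9 markers, 5 had no overlap between genotypes, all 5 higher in knockout, where 31.6% of all genes had none. None of the 9 passed the threshold. The part of these cell types in the values of Etfb, Acsl3, Mmut, Cat and Acss2 was not tested.

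Fat and epididymis can be carried along with a testis and both handle fatty acids. Of 10 adipocyte markers 7 were tested, and Lep, Cfd and Ucp1 were not well above background on all arrays of either genotype. Of the 7 tested, 2 lay above 0, Adipoq at 0.28 and Cidec at 0.04, and 5 below. The sum of the 7 was 10151 to 10298 in knockout and 10550 to 12177 in wild type. Cidea accounted for that gap, with 4570, 4798 and 4879 in knockout and 6597, 5905 and 6582 in wild type. Cidea, a lipid droplet protein, fell by 0.42 on the log2 scale (adjusted p = 0.041), and Slc2a4, the insulin-responsive glucose transporter, fell by 0.27 (adjusted p = 0.046). These were 2 of 7, where 2.46% of all genes passed. Both calls were lost when blocking on slide (adjusted p = 0.062 for Cidea and 0.071 for Slc2a4). Fabp4, the fatty acid-binding protein of fat cells, had 106, 97 and 89 in knockout and 118, 82 and 349 in wild type, so that wild-type replicate 3 stood apart. The epididymal markers Lcn5, Lcn8 and Crisp1 were not well above background on any array. The 4 epididymal markers that were tested, Lcn9, Defb20, Rnase10 and Cst11, all lay above 0, with a median of 0.18 and none past the threshold. Within slide 1 all 4 were above 0 (median 0.22), and within slide 2 only 1 was (median -0.06). Their sum was 666 to 705 in knockout and 518 to 638 in wild type, without overlap, where 31.6% of all single genes had none. That gap came from Rnase10 (0.24, adjusted p = 0.10), the only 1 of the 4 whose genotypes did not overlap. Lcn9, Defb20 and Cst11 were dim, with scaled signals of 40 to 86. Cst11 was well above background on 5 of 6 arrays, so only 1 genotype met the filter. Its direction can follow from that filter. The part of epididymal signal in the results was not tested. Whether fat tissue had a part in the values of wild-type replicate 3 was not tested. Without that array, Etfb was at 0.33 and no longer passed the threshold, while Acsl3 was at -0.30 and passed. The loss was not particular to that array. Both calls were also lost when any 1 knockout array or wild-type replicate 1 was left out.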

How the data were processed

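Spot intensity values were deposited as 1 scanner file per array, with processed signals from Agilent's Feature Extraction software (10.7.3.1), from which, per the file headers, background had been removed as a spatial detrend surface and dim spots given surrogate values. The authors also deposited log2 values whose columns share 1 distribution, and the steps behind them are not given in the sources used here. Flags and other deposited columns were used as given. There were 43379 non-control spots and 41174 probes per array, and the number of arrays limits the precision.

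Control spots and outlier-flagged spots were left out. Processed signals were put on the log2 scale, set relative to the 75th percentile of their array and averaged over a probe's spots. A probe was tested if well above background on every array of at least 1 genotype, with at least 2 values per genotype (28306 probes), and the brightest probe stood for a gene (18976 genes). Genotypes were compared with limma 3.58.1 under R 4.3.3 (lmFit, then eBayes), and Benjamini-Hochberg adjusted p-values under 0.05 were taken as past the threshold. A scaled signal is the processed signal times 1617.29, the geometric mean of the arrays' percentiles, over its own array's percentile. The fit was tested on simulated data.

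Members, gene lists, roles and markers were chosen with earlier results of these data known. Named were all members, the 3 wider genes past the threshold, and per wider group without one the gene of smallest p, of which 1 is not reported here. Members past the threshold and the 4 with the largest difference each way were given per array, and Hadha, Etfa and the Acsl1 probe at base 3718 were added after their values were seen. Alternatives were other background corrections, normalizations, filters, probe rules, variance models, blocks for slide or replicate number, fits without 1 array, and slide 1 alone, which was chosen after seeing the data.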

Additional observations from a re-analysis of the deposited data

How the results depend on the processing

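No call changed direction. The median over the members, close to 0 at 0.0093, became -0.013 with array weights, and it ran from -0.0095 to 0.031 as each array was left out. The 1 member higher became 0 with normexp, quantile normalization, the deposited log2 table, no filter on dim probes, the slide block and slide 1 alone. The 1 member lower became 0 with no filter, the slide block and slide 1 alone, and 2 at an adjusted p under 0.1 (Acsl3 and Acsl4). Leaving out 1 array gave 0 to 1 for each. Etfb passed without wild-type replicate 2 and not without any other array. Acsl3 passed without wild-type replicate 2 or 3 and not without the others. Of the wider genes, 2 higher became 1 with normexp and with median centring, 0 with no filter, each gene's probes averaged, the slide block and slide 1 alone, and 5 with variance trend and robust fitting (0 to 1 with an array left out). The 1 lower became 0 with median centring, no filter, the slide block and slide 1 alone, and 3 with array weights (0 to 2 with an array left out). Over all genes, 467 calls became 8 with no filter, 275 with averaged probes, 1270 with variance trend and robust fitting, 1467 with array weights, 79 with the slide block, 27 on slide 1 alone, and 2 to 779 with an array left out. The causes were not tested, though slide 1 alone and left-out arrays use fewer samples. Arrays of the same replicate number correlated at -0.03, -0.03 and 0.16 in their deviations from the group means, so the numbers were not taken as pairs. With a replicate block, 0 members, 0 wider genes and 2 genes in all passed. Of 632 values of single members under an alternative, 569 kept their direction and their side of the threshold (on slide 2, with no test, their value within the spread between arrays), 20 lost the call, all of Etfb or Acsl3, 1 gained it (the Acsl1 probe at base 3718), and 42 changed sign without a call on either side or, on slide 2, moved by more than that spread. The number of arrays limits what could be detected.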

Other observations

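Pdk4, a kinase that holds back the oxidation of pyruvate in the mitochondrion when fatty acids are burnt, was chosen after its values were seen. It had 264, 244 and 215 in knockout and 193, 153 and 116 in wild type, all knockout values being above all wild-type values. Its difference of 0.67 (SE 0.19) did not pass in limma (adjusted p = 0.11), nor with the slide as a block (adjusted p = 0.070). Cd36, a fatty acid transporter that also serves uptake of dead cells, was picked in the same way. It had 862, 1039 and 962 in knockout and 569, 566 and 877 in wild type, with wild-type replicate 3 the highest of its genotype. Its difference was 0.54 (SE 0.19, adjusted p = 0.16), with 0.74 within slide 1 and 0.13 within slide 2.

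Of the 9 macrophage markers, 8 lay above 0, with a median of 0.16 and none past the threshold. Adipoq, a fat cell hormone, had 4666, 4566 and 4512 in knockout and 4500, 4483 and 2672 in wild type, where replicate 3 stood apart as it did for Fabp4, but on the low side.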
